A study of Homo sapiens with 6 samples.

Results

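The 39 genes described here encode the enzymes and carriers of glycolysis, the regulators of its flux, the hypoxia-inducible factors with 2 of their oxygen sensors, and 11 genes that low oxygen is known to induce. They were found among the 58381 gene IDs of the deposited table by matching Ensembl IDs, without their version, to GENCODE 29 symbols on hg38. RNA was sequenced from MCF10AT1, a human breast epithelial line derived from a xenograft of MCF10A cells transformed with HRAS. Cells were stained for the surface proteins CD24 and CD44 and sorted by flow cytometry into a CD24low, CD44high fraction (CD24low below) and a CD24high, CD44+ fraction (CD24high below), with 3 libraries each. Both fractions came from cells that carried the same HRAS background and were kept in DMEM:F12 supplemented with horse serum, EGF, insulin, hydrocortisone and cholera toxin, with no further treatment in the labels. The series title is about RUNX factors in stem cells of breast cancer, and the column names use CSC for the CD24low and Bulk for the CD24high fraction. No label states an oxygen level, or that the replicates were separate cultures, so a p-value here measures the spread among 6 libraries, a spread that may be technical. In bulk RNA, fewer cells of a type and less RNA per cell cannot be told apart.

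Glycolysis splits glucose into pyruvate and makes ATP without oxygen, and lactate dehydrogenase then returns NAD by reducing pyruvate to lactate. When oxygen is low, the prolyl hydroxylases of the EGLN family no longer mark the HIF alpha subunits for degradation, and HIF binds DNA at short motifs with the core RCGTG to induce many glycolytic genes together with genes of pH control, mitophagy and angiogenesis. HIF is regulated mainly at the level of protein, so the transcript of HIF1A is not a measure of its activity. Several steps are shared by paralogues, such as the ubiquitous enolase ENO1 and the neuronal enolase ENO2, or the glucose carriers GLUT1 (SLC2A1) and GLUT3 (SLC2A3).

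The libraries held 24421025 to 26988295 reads in CD24low and 16691162 to 27293177 in CD24high cells, and 1 read was worth 0.881 to 0.980 and 0.830 to 1.46 normalized counts. CD24 itself, the sorted protein, had 588, 329 and 1370 normalized counts in CD24low and 4043, 2325 and 5687 in CD24high libraries. CD44, the other sorted protein, had 8294, 7479 and 6866 against 8553, 7878 and 8993 normalized counts, a difference of -0.17 with overlap (interval -0.43 to 0.09). Its RNA was thus not higher in the fraction named CD44high, but the sort was on surface protein, which RNA does not measure. All 6 mammary epithelial markers (KRT5, KRT14, KRT8, KRT18, EPCAM and CDH1) were detected in every library, and all 6 had a lower mean in CD24low cells, with a summed level of 65032 to 99579 normalized counts against 92983 to 114402. Of 17 markers of leukocytes, endothelium, red cells and adipocytes, 2 averaged 10 normalized counts or more, the macrophage marker CD68 and the endothelial marker PECAM1. The other 3 endothelial markers summed to at most 6.86 normalized counts in CD24low and 16.1 in CD24high libraries. The share of reads from rRNA genes was 7.15%, 7.07% and 1.97% in CD24low replicates 1, 2 and 3, and 1.30%, 2.27% and 10.2% in CD24high replicates 1, 2 and 3. Values are therefore also given within the libraries of low share (CD24low replicate 3 against CD24high replicates 1 and 2) and of high share (CD24low replicates 1 and 2 against CD24high replicate 3), each with 1 library on a side and so without a test.

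Nearly all of the 39 genes had a higher mean in CD24low cells, and nearly all of these differences were small. Each of the 39 genes passed the filter on low values (an average of at least 10 normalized counts) and was tested. Differences were taken as CD24low minus CD24high after log2 of the normalized count + 1: 36 were above 0 and 3 below (SLC2A1, PDK1 and EPAS1), with a median of 0.25. Over all 16047 genes tested the median was -0.01 and 49.0% were above 0. Limma with Benjamini-Hochberg adjustment called 0 of the 39, as it called 0 of all genes tested (0.0%). The same held for edgeR, with 0 of the 39 and 0 of all genes tested (0.0%). At an unadjusted p under 0.05 limma held 10 of the 39, all higher, where 6.34% of all genes tested were higher and 7.15% lower. By edgeR 10 of the 39 also had an unadjusted p under 0.05, as did 2263 of all 16047 genes tested. DESeq2 called 1 of the 39, ENO2, where it called 2.51% of all genes tested, 1.36% as higher in CD24low cells and 1.15% as lower. In 11 of the 39 genes every CD24low library lay above every CD24high library, against 10.2% of all genes tested. For 29 of the 39 genes the 95% interval of limma lay within 1 log2 unit of 0 on both sides, and for the other 10 it reached beyond 1. Within libraries of low rRNA share the median of the 39 was 0.089, and within those of high share 0.38. With rRNA share as a covariate 35 of the 39 differences were above 0, and within low rRNA share 29 were. The lower epithelial markers and the unequal rRNA shares accompany these differences, and whether either is a cause was not tested.

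**Figure D1:**
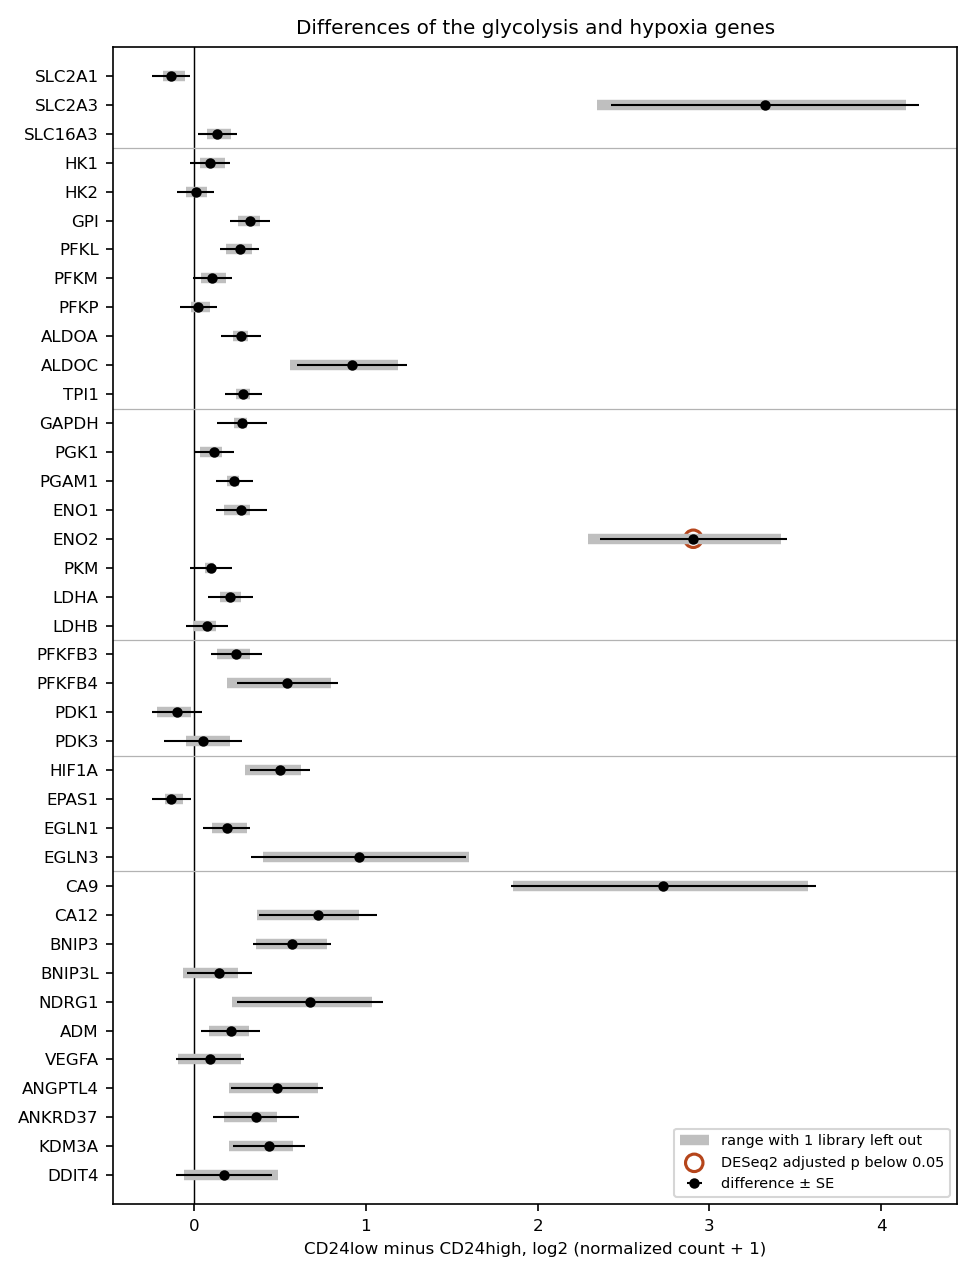
Difference of each of the 39 genes between the fractions, CD24low minus CD24high in log2 (normalized count + 1), with genes in rows by role. Points are the difference with its standard error, grey bars span the values with 1 library left out, and the ring marks ENO2, the gene with a DESeq2 adjusted p below 0.05. SLC2A3, ENO2 and CA9 lie between 2.73 and 3.32, and the other 36 below 1.

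Among the carriers, GLUT3 had the largest difference of all 39 genes, while GLUT1 and the lactate exporter differed by -0.13 and 0.14 with overlapping groups. SLC2A3 (ENSG00000059804.15, chromosome 12, 7919230 to 7936275, minus strand, hg38), the high-affinity glucose carrier GLUT3, had 56.4, 299.9 and 49.0 normalized counts in CD24low and 10.8, 28.6 and 1.46 in CD24high libraries. Each CD24low library lay above each CD24high library, but CD24low replicate 2 stood far above the other CD24low libraries, and the value of CD24high replicate 3 rests on 1 read. The means were 135 ± 143 in CD24low and 13.6 ± 13.8 in CD24high cells (SD, n = 3 each), a log2 difference of 3.32 (SE 0.89; limma adjusted p = 0.175; DESeq2 adjusted p = 0.134). Leaving out CD24high replicate 3 gave 2.35 and leaving out CD24high replicate 2 gave 4.14, the ends of the range over the 6 libraries, and within low and high rRNA share it was 1.42 and 5.74. SLC2A14, a near-identical gene beside it, had 3.53, 27.7 and 3.92 normalized counts in CD24low and 0, 3.95 and 0 in CD24high libraries, where 0 allows up to 3 reads per library (2.49 and 4.38 normalized counts in CD24high replicates 1 and 3). The processed copy SLC2A3P1 had 793 ± 121 and 893 ± 51.7 normalized counts, more than were counted for SLC2A3 itself, so reads shared between the copies leave the count of SLC2A3 uncertain.

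SLC2A1, the basal glucose carrier GLUT1, had 3276, 2768 and 3309 normalized counts in CD24low and 3397, 3291 and 3540 in CD24high libraries. The groups overlapped, with a difference of -0.13 whose 95% interval in limma ran from -0.38 to 0.11. SLC16A3, which exports lactate as MCT4, had 7957, 8472 and 8543 against 6973, 8467 and 7354 normalized counts, a difference of 0.14 (interval -0.12 to 0.39). Per kilobase of annotated exon, SLC2A1 had 660 normalized counts in CD24low and 722 in CD24high cells, and SLC2A3 had 21.9 and 2.21, so GLUT1 was the more abundant carrier transcript in both fractions.

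All 17 enzymes of the glycolytic steps from hexokinase to lactate dehydrogenase had a higher mean in CD24low cells, except that HK2 turned to -0.01 when libraries were scaled to their reads outside rRNA, and for 15 of them the difference was at most 0.33. With 1 library left out the lowest values of HK2, PFKP and LDHB were -0.05, -0.02 and -0.01. These 15, each averaging 1000 normalized counts or more, spanned 0.01 (HK2) to 0.33 (GPI), and their 95% intervals in limma all lay between -0.23 and 0.61. The 17 enzymes had a median of 0.24, with 0.19 within low and 0.25 within high rRNA share. In 9 of the 17 the groups did not overlap, with CD24low higher, and 6 were higher at an unadjusted p under 0.05, against 10.2% and 6.34% of all genes tested. Together they took 1.18%, 1.24% and 1.14% of the reads outside rRNA in CD24low libraries and 1.07%, 1.05% and 0.986% in CD24high libraries. All 3 CD24low shares lay above all 3 CD24high shares. Most of each share came from GAPDH, ENO1, PKM and LDHA. These took 0.801%, 0.841% and 0.771% in CD24low and 0.727%, 0.699% and 0.653% in CD24high libraries.

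In the steps down to the triose phosphates, GPI, ALDOA, PFKL and TPI1 were higher in each CD24low library than in each CD24high library, while the hexokinases and the other phosphofructokinases overlapped. HK1 and HK2, which trap glucose as its phosphate, differed by 0.09 and 0.01. GPI, which converts glucose 6-phosphate to fructose 6-phosphate, had 12081, 13073 and 11584 normalized counts in CD24low and 8909, 9842 and 10611 in CD24high libraries. Its difference was 0.33 (SE 0.12, a fold of 1.25), with an unadjusted p of 0.0203 and an adjusted p of 0.285 in limma. PFKL, the liver form of phosphofructokinase, had 1820, 1918 and 1830 against 1380, 1562 and 1705 normalized counts, a difference of 0.27, whereas the muscle form PFKM differed by 0.11 and the platelet form PFKP by 0.03. ALDOA, the main aldolase of muscle and of most cells, had 16971, 18190 and 16221 against 13538, 14998 and 13934 normalized counts, also a difference of 0.27. The overlapping AC093512.2 on the same strand held 99.1% of the count of ALDOA, so the reads of these genes were not told apart. TPI1, which interconverts the products of aldolase, had 10632, 11390 and 11705 against 9642, 9345 and 8640 normalized counts, a difference of 0.29.

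The brain aldolase ALDOC had a larger difference than ALDOA at a far lower level, with 55 normalized counts per kilobase in CD24low and 27.6 in CD24high cells against 4374 and 3615 for ALDOA. ALDOC had 103, 247 and 132 normalized counts in CD24low and 71.4, 107 and 64.3 in CD24high libraries. CD24low replicate 1 lay below CD24high replicate 2, so the groups overlapped. The difference was 0.92 (SE 0.32; limma adjusted p = 0.270; DESeq2 adjusted p = 0.0981), from 0.56 to 1.19 with 1 library left out. A readthrough gene on the same strand, AC005726.1, had 403 and 390 normalized counts on average, and how reads were divided between them is not given.

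In the steps that yield ATP, the most abundant transcripts again had slightly higher means, and the neuronal enolase had the largest difference. GAPDH (chromosome 12, 6533927 to 6538374, plus strand), which makes NADH, had 65423, 71195 and 67779 normalized counts in CD24low and 57783, 57838 and 52581 in CD24high libraries. The groups did not overlap, with means of 68132 ± 2902 and 56068 ± 3019 (SD, n = 3 each), a difference of 0.28 (limma adjusted p = 0.428). It ranked 77th of 16030 genes by level per kilobase, so a gene often used to scale expression assays had a mean 1.22 times as high in CD24low as in CD24high cells. PGK1, the first step to return ATP, differed by 0.12 with overlapping groups, and the mutase PGAM1 had 9138, 9248 and 9921 against 8149, 8337 and 7560 normalized counts, a difference of 0.24. ENO1 had 50477, 51046 and 53723 normalized counts in CD24low and 45908, 45609 and 37282 in CD24high libraries, a difference of 0.28. PKM, which makes pyruvate, had 32682, 35048 and 32751 against 32085, 31025 and 30619 normalized counts, groups that did not overlap but differed by only 0.10. LDHA, the form of lactate dehydrogenase that favours lactate, had 28366, 30561 and 26524 against 26709, 24464 and 22610 normalized counts, a difference of 0.21 with overlap, and LDHB differed by 0.08.

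ENO2 (ENSG00000111674.8, chromosome 12, 6913745 to 6923698, plus strand) had 55.5, 152 and 31.3 normalized counts in CD24low and 12.4, 4.94 and 7.31 in CD24high libraries, which rest on 63, 159 and 32 reads and on 15, 5 and 5 reads. Every CD24low library lay above every CD24high library, and CD24low replicate 2 was again the highest. The means were 79.6 ± 63.8 and 8.23 ± 3.84 (SD, n = 3 each), a log2 difference of 2.91 (SE 0.54) and a fold of 7.50 on the scale with 1 added. ENO2 rose in CD24low cells by DESeq2 (log2 fold change 3.26, SE 0.61, adjusted p = 3.35e-05) but did not pass limma (adjusted p = 0.0878) or edgeR (adjusted p = 0.134). Its CD24high mean of 8.23 lay below the filter on low values, so ENO2 entered these tests only through its CD24low values. With all 6 libraries, the filter and no block, no tested gene passed limma or edgeR, and the smallest limma adjusted p was 0.0676. With a block for the replicate number ENO2 passed limma (adjusted p = 0.00286) and edgeR (adjusted p = 0.0036), where 4.46% and 4.39% of all genes did. The labels do not say that replicate numbers mark shared cultures. In limma without a block, ENO2 passed when CD24low replicate 3 was left out (adjusted p = 0.0135), where 2.31% of all genes did. It also passed when low genes were not filtered out (adjusted p = 0.0172), where 0.525% of all genes did. Leaving out CD24low replicate 2 gave 2.29 and leaving out CD24low replicate 3 gave 3.41, and the values were 1.86 and 3.48 within low and high rRNA share. LRRC23, which overlaps ENO2 on the same strand, had 46.7, 58.3 and 46.0 normalized counts in CD24low and 32.4, 32.6 and 54.1 in CD24high libraries. The ENO2 transcript remained a small part of the enolase RNA: per kilobase of exon ENO2 had 18.6 normalized counts in CD24low and 1.92 in CD24high cells, against 9808 and 8137 for ENO1.

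**Figure D2:**
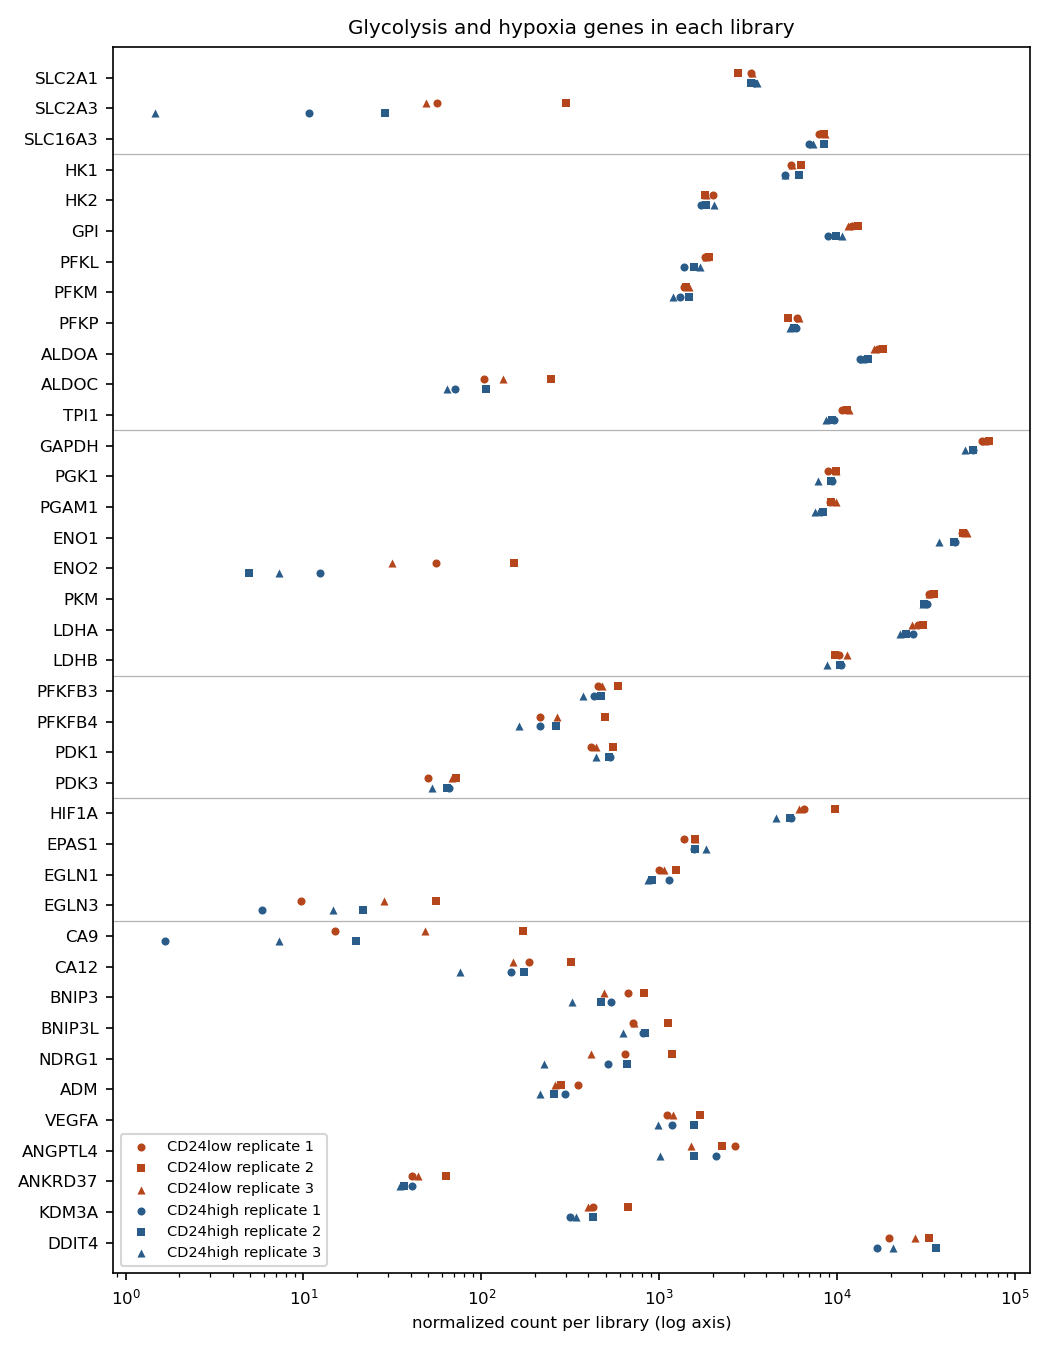
Normalized count of each gene in each library on a log axis, with genes in rows by role, CD24low libraries in orange above CD24high libraries in blue, and replicates by shape. The abundant glycolytic enzymes form tight groups above 1000 normalized counts, while ENO2 spans 4.94 to 152 and SLC2A3 spans 1.46 to 299.9.

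The DNA before the start sites was searched for the HIF core in the RefSeq promoter table (GRCh38.p14). The table held 35 of the 39 genes, without SLC2A3, BNIP3L, NDRG1 and VEGFA. The 250 bases before the start site were searched on both strands for ACGTG and for GCGTG. Either motif was found in 24 of the 35 (68.6%), ACGTG in 42.9% and GCGTG in 42.9%. Among all 27305 promoters listed, 43.1% held either motif, 18.7% ACGTG and 31.9% GCGTG. Among 10132 promoters of tested genes the shares were 57.6%, 23.8% and 45.7%. The genes' promoters had a median GC content of 68.8%, against 58% over the table and 64.8% over the tested genes, and the share of promoters with such motifs was not compared at equal GC content. By role, 8 of 8 promoters of hypoxia-induced genes held either motif, and 0 of 2 of the carriers. A match says only that these letters are present.

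Shown 5′ to 3′ on the strand of each gene are the 250 bases before the RefSeq start of ENO2, ALDOC and CA9, with differences of 2.91, 0.92 and 2.73, of ENO1 and CA12, paralogues of ENO2 and CA9 with differences of 0.28 and 0.72, and of LDHA, an abundant enzyme with a difference of 0.21. Capitals mark the motifs, written CACGT or CACGC where they lie on the other strand, and CACGTG where the 2 strands overlap. The regions are chr12:6914330-6914579 (plus strand) for ENO2, chr1:8878687-8878936 (minus strand) for ENO1, chr17:28576896-28577145 (minus strand) for ALDOC, chr9:35673678-35673927 (plus strand) for CA9, chr15:63381847-63382096 (minus strand) for CA12 and chr11:18394313-18394562 (plus strand) for LDHA.
ENO2: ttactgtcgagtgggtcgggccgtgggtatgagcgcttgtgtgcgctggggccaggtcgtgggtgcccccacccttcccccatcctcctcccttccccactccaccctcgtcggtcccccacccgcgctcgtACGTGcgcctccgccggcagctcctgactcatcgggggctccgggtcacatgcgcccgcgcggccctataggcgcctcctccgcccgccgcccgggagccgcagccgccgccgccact
ENO1: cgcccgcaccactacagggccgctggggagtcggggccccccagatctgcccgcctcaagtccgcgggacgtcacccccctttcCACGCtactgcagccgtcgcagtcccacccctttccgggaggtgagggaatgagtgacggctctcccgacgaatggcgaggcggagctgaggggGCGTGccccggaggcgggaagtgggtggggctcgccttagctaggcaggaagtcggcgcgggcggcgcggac
ALDOC: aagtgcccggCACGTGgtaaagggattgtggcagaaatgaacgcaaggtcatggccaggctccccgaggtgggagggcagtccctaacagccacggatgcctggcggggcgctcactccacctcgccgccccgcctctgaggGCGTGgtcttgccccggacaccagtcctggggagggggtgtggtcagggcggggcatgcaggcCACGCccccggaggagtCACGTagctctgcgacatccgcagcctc
CA9: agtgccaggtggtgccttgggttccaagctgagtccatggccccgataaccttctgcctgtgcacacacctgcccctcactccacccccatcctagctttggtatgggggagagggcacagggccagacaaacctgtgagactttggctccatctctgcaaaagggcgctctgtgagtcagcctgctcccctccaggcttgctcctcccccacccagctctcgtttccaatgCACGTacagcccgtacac
CA12: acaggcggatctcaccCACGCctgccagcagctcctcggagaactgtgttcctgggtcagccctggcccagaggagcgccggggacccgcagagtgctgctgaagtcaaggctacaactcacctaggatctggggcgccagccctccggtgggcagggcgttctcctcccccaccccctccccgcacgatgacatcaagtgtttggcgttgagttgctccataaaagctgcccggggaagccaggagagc
LDHA: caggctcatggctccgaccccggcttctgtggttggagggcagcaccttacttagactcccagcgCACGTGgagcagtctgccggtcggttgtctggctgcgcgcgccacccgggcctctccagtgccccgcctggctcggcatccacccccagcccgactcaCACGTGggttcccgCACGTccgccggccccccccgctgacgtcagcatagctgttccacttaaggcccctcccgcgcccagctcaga

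ENO2 had 1 ACGTG, which began 118 bases before the start, and ENO1 had none but 2 copies of GCGTG, which began 166 and 72 bases before it. CA9 had 1 ACGTG on the other strand, 18 bases before the start. LDHA, whose transcript differed by 0.21, held 5 ACGTG matches, of which 4 formed 2 palindromes CACGTG, and ALDOC held 3 of ACGTG and 2 of GCGTG. CA12 held a single GCGTG, 234 bases before the start. These 6 genes were picked with their differences known, so their matches cannot be set against their differences. Whether matches go with differences over the 35 promoters was not tested.

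The regulators of glycolytic flux overlapped between the fractions. PFKFB3 and PFKFB4 set the level of fructose 2,6-bisphosphate, the activator of phosphofructokinase, and both are known hypoxia targets. PFKFB4 had 215, 497 and 267 normalized counts in CD24low and 213, 264 and 164 in CD24high libraries. Only CD24low replicate 2 and replicate 3 lay above the highest CD24high library, and the difference of 0.54 (SE 0.29; limma adjusted p = 0.451) was 0.19 without CD24low replicate 2. PFKFB3 had 452, 587 and 474 against 428, 472 and 373 normalized counts, a difference of 0.25. PDK1 and PDK3, kinases that switch off pyruvate dehydrogenase, differed by -0.10 and 0.05.

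Of the HIF subunits, HIF1A was higher in every CD24low library and EPAS1 was not. HIF1A (ENSG00000100644.16, chromosome 14, 61695513 to 61748259, plus strand) had 6515, 9689 and 6136 normalized counts in CD24low and 5531, 5471 and 4516 in CD24high libraries. The groups did not overlap, and CD24low replicate 2 was the highest by a wide gap. The means were 7446 ± 1952 and 5173 ± 569 (SD, n = 3 each), a difference of 0.50 (SE 0.18; limma adjusted p = 0.270; DESeq2 adjusted p = 0.0993), the largest among the 23 genes that averaged 1000 normalized counts or more. Leaving out CD24low replicate 2 gave 0.30 for HIF1A, and the values were 0.16 and 0.81 within low and high rRNA share. EPAS1, which encodes HIF-2 alpha, had 1377, 1593 and 1585 against 1576, 1592 and 1826 normalized counts, a difference of -0.13 (interval -0.39 to 0.12). Per kilobase of exon HIF1A had 1446 normalized counts in CD24low and 1004 in CD24high cells, and EPAS1 had 208 and 228.

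The oxygen sensors were close or low. EGLN1, the main HIF prolyl hydroxylase PHD2, had 1004, 1237 and 1061 normalized counts in CD24low and 1134, 907 and 862 in CD24high libraries, a difference of 0.19. EGLN3, the hydroxylase PHD3 that HIF itself induces, had 9.70, 55.4 and 28.4 against 5.81, 21.7 and 14.6 normalized counts. The groups overlapped, and the difference of 0.96 had a wide interval, -0.44 to 2.36. SPTSSA, which overlaps EGLN3 on the same strand, had 468 and 581 normalized counts on average, many times the count of EGLN3.

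All 11 hypoxia-induced genes had a higher mean in CD24low cells, with a median difference of 0.44. In 0 of 11 were the groups apart, where 10.2% of all genes tested were apart with CD24low higher. By limma 2 of 11 (CA9 and BNIP3) were higher at an unadjusted p under 0.05, where 6.34% of all genes tested were. Without a block, limma, edgeR and DESeq2 called 0 of the 11, where DESeq2 called 2.51% of all genes tested and limma and edgeR 0.0%. With a block for the replicate number, limma called 5 of the 11 (CA9, CA12, BNIP3, NDRG1 and ANGPTL4), where it called 4.46% of all genes. The block in edgeR gave the same genes without CA12, but the labels do not say that replicate numbers mark shared cultures. Within libraries of low rRNA share 4 of the 11 were above 0, with a median of -0.09, and within those of high share 11 of 11 were above 0, with a median of 0.65. CD24low replicate 2 had the highest of the 6 values for 8 of the 11, and CD24high replicate 3 had the lowest for 8. With 1 library left out, the lowest difference was below the reported one by over 1.5 times for 10 of the 11, in 4 of them without CD24low replicate 2 and in 4 without CD24high replicate 3. Over all genes tested, these libraries were highest for 23.7% and lowest for 20.9%. The median within-group SD of the 11 was 0.38 on the log2 scale, against 0.11 in both the upper and the lower steps of glycolysis and 0.21 over all genes tested.

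CA9 (ENSG00000107159.12, chromosome 9, 35673856 to 35681159, plus strand), the carbonic anhydrase used as a marker of hypoxic tumour regions, had 15.0, 171 and 48.0 normalized counts in CD24low and 1.66, 19.8 and 7.31 in CD24high libraries. CD24low replicate 1 lay below CD24high replicate 2, so the groups overlapped, and the value of CD24high replicate 1 rests on 2 reads. The difference was 2.73 (SE 0.89; limma adjusted p = 0.240; DESeq2 adjusted p = 0.203), with 2.72 and 2.66 within low and high rRNA share and 1.86 without CD24low replicate 2. CA12, a second carbonic anhydrase of the cell surface, had 184, 320 and 151 against 148, 174 and 76.0 normalized counts. Its difference of 0.72 became -0.09 within low and 1.66 within high rRNA share.

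BNIP3 and BNIP3L recruit autophagy to mitochondria. BNIP3 had 665, 824 and 488 normalized counts in CD24low and 534, 470 and 323 in CD24high libraries, a difference of 0.57 (SE 0.23; adjusted p = 0.318 in limma) that was -0.04 within low and 1.19 within high rRNA share. BNIP3L had 714, 1117 and 719 against 812, 832 and 622 normalized counts, a difference of 0.15 that turned to -0.06 when CD24low replicate 2 was left out. NDRG1, a stress-induced gene, had 643, 1174 and 412 against 514, 656 and 225 normalized counts. Its difference of 0.68 was -0.49 within low and 1.94 within high rRNA share, the widest gap of the group.

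The secreted factors showed the same spread between libraries. ANGPTL4, an inhibitor of lipoprotein lipase, had 2682, 2245 and 1506 normalized counts in CD24low and 2076, 1578 and 1010 in CD24high libraries, a difference of 0.48 that was -0.26 within low and 1.28 within high rRNA share. VEGFA, the main angiogenic factor, had 1112, 1690 and 1190 against 1187, 1578 and 985 normalized counts, and ADM, the vasodilator adrenomedullin, differed by 0.21. The VEGFA difference of 0.09 had an interval of -0.35 to 0.54. KDM3A, a histone H3 demethylase, had 426, 671 and 398 against 315, 426 and 340 normalized counts, a difference of 0.44, and ANKRD37 differed by 0.36. Without CD24low replicate 2 these were 0.20 and 0.17, and that of VEGFA was -0.09. DDIT4, the inhibitor of mTORC1 also called REDD1, was the second most abundant of the 39 genes per kilobase and had 19633, 32818 and 27523 against 16766, 35800 and 20541 normalized counts. Its difference of 0.17 turned to -0.06 without CD24high replicate 1 and was 0.49 without CD24high replicate 2.

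**Figure D3:**
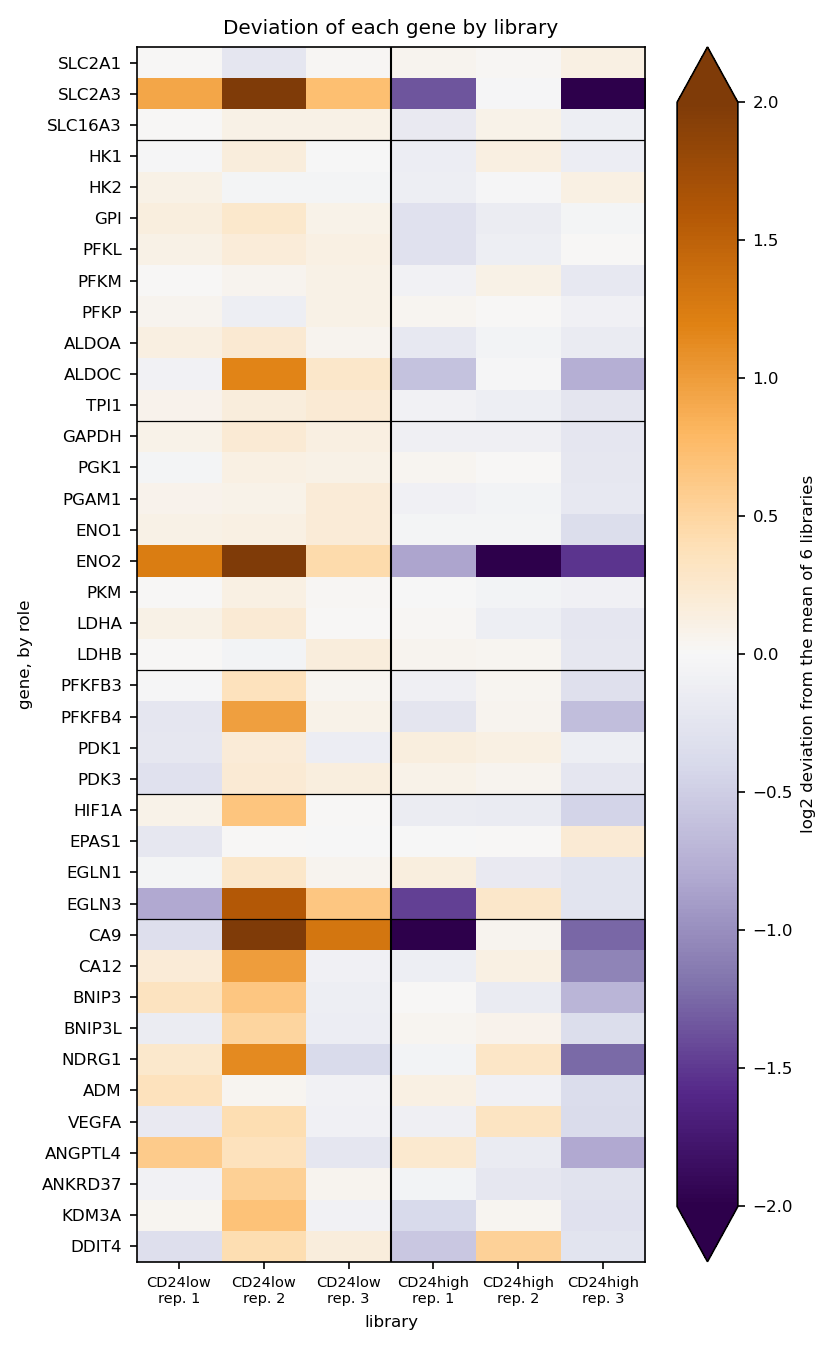
Deviation of each gene in each library from its mean over the 6 libraries, in log2 units, with genes in rows by role and the CD24low libraries left of the line. The median deviation of the hypoxia-induced genes was 0.03, 0.56 and -0.09 in CD24low replicates 1 to 3 and -0.06, 0.06 and -0.36 in CD24high replicates 1 to 3. The color scale ends at 2 log2 units on each side.

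Over the 39 genes, CD24low replicate 2 was the highest library for 26 and CD24high replicate 3 the lowest for 24, against 23.7% and 20.9% of all genes tested. The former is also the library with the least CD24 (329 normalized counts), and the latter the library with the most (5687) and with the fewest reads. Both are of high rRNA share (7.07% and 10.2%). The values within high share compare CD24low replicates 1 and 2 with CD24high replicate 3. The rRNA split and these libraries therefore cannot be told apart. Without CD24low replicate 2, 33 of the 39 differences were above 0, and without CD24high replicate 3, 32 were. What set these libraries apart was not tested.

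Paralogues with the same function were compared within each library, which removes the scaling between libraries. For 13 pairs the log2 ratio of normalized counts was tested with a two-sided exact permutation test, whose smallest possible p with 3 against 3 libraries is 0.1. For 4 pairs the fractions did not overlap, and each had that smallest exact p of 0.1 (0.325 after Benjamini-Hochberg adjustment over the 13 pairs). The ratio of ENO2 to ENO1 was -9.63 ± 1.17 in CD24low and -12.26 ± 0.59 in CD24high libraries, a difference of 2.63. The ratio of SLC2A3 to SLC2A1 was -5.03 ± 1.59 and -8.49 ± 1.87, a difference of 3.46. EPAS1 against HIF1A had -2.27 ± 0.33 and -1.63 ± 0.28, a difference of -0.63 toward HIF1A. BNIP3L against BNIP3 had 0.37 ± 0.24 and 0.79 ± 0.17, a difference of -0.42 toward BNIP3 (all SD, n = 3 each). The other 9 pairs overlapped, among them CA12 to CA9 with a difference of -2.01, LDHB to LDHA with -0.14 and HK2 to HK1 with -0.08.

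**Figure D4:**
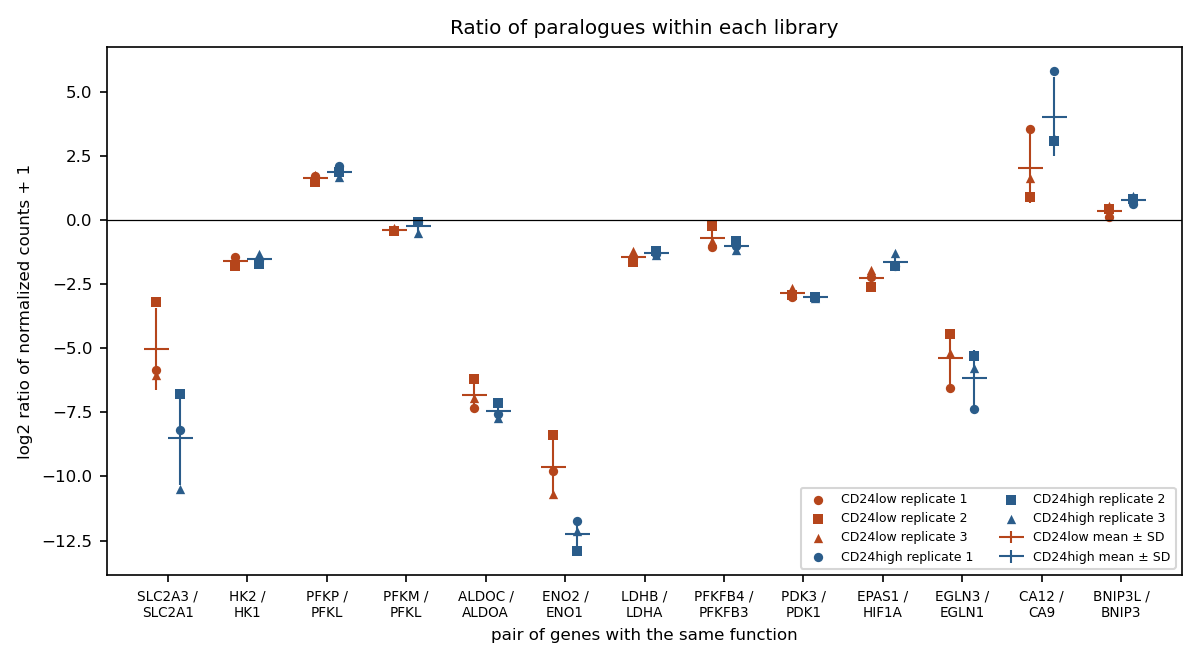
Log2 ratio of 13 pairs of genes with the same function in each library, with CD24low in orange left of CD24high in blue, bars for the mean and its SD, and replicates by shape. The pairs SLC2A3 to SLC2A1 and ENO2 to ENO1 show the widest separation, with differences of 3.46 and 2.63.

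The size of a difference fell as the level of the gene rose, in these 39 genes and over the table. The 6 genes with a mean under 100 normalized counts had a median absolute difference of 1.85, the 10 between 100 and 1000 had 0.49, and the 23 above had 0.17. Over all genes tested these medians were 0.30 (4577 genes), 0.15 (7586 genes) and 0.12 (3884 genes). The 3 genes with an absolute difference of at least 1, SLC2A3, ENO2 and CA9, were all in the lowest class. In CD24high cells ENO2 and CA9 averaged 8.23 and 9.57 normalized counts, so they passed the filter of 10 only through their CD24low values. The median of the lowest class rests in part on these genes, so it cannot be set against that of all genes tested.

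**Figure D5:**
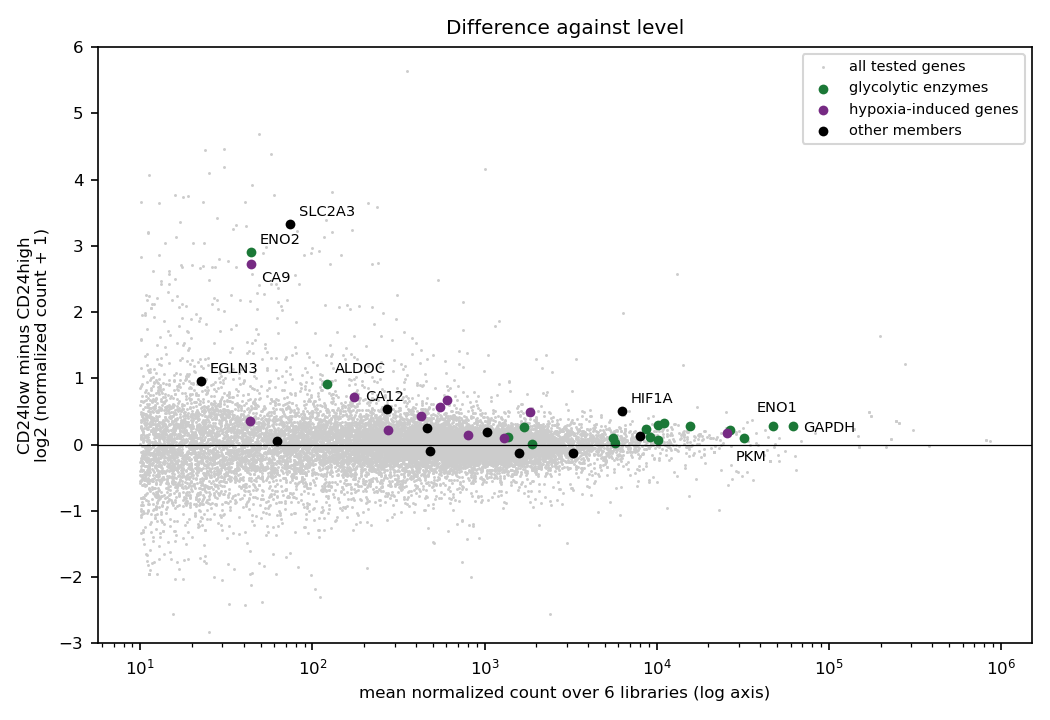
Difference of each tested gene (CD24low minus CD24high, log2 of the normalized count + 1) against its mean normalized count over the 6 libraries on a log axis. Grey points are the 16047 genes tested, green the glycolytic enzymes, purple the hypoxia-induced genes and black the other genes of the 39. Large differences lie at low counts on the left, and GAPDH and ENO1 lie at 0.28 on the right.

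Processed copies were checked for the reads they hold. Copies of LDHA held 5.19% of the count of LDHA, and its copy LDHAP4 had 1416, 1545 and 1450 normalized counts in CD24low and 1346, 1290 and 1128 in CD24high libraries, the direction of LDHA. Copies of TPI1 held 3.33% of its count and the 62 copies of GAPDH 0.129%. For BNIP3 they held 33.7%, in the direction opposite to BNIP3, with 158 normalized counts in CD24low and 213 in CD24high cells on average. Its copy BNIP3P4 had 69.6, 61.1 and 91.1 normalized counts in CD24low and 104, 122 and 184 in CD24high libraries, so the count of BNIP3 is uncertain.

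Genes around the pathway were drawn from 7 lists of 96 genes, of which 78 were tested. Of these, 48 were higher and 30 lower in CD24low cells, with a median difference of 0.11. Limma called 0 of the 78 and DESeq2 2, PDK4 and MIF, both higher, where it called 2.51% of all genes tested. At an unadjusted p under 0.05, 12 were higher and 6 lower, where 6.34% and 7.15% of all genes tested were. In 13 every CD24low library was above and in 4 below every CD24high library, where 10.2% and 9.32% of all genes tested were. The genes with the smallest limma p in each list are named here, at most 2 per list.

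Around pyruvate, the 12 tested genes were split evenly, 6 higher and 6 lower. PDK4, another inhibitory kinase of pyruvate dehydrogenase, rose in CD24low cells by DESeq2 (adjusted p = 0.0360), with 172, 357 and 174 normalized counts in CD24low and 105, 126 and 120 in CD24high libraries and a difference of 0.91 (limma adjusted p = 0.206). The DESeq2 call of PDK4 was lost in 4 of 6 fits with 1 library left out, and its difference was 0.56 without CD24low replicate 2. PDP1, a phosphatase that reactivates the enzyme, had 846, 731 and 1077 against 1300, 1143 and 1236 normalized counts, a difference of -0.49. In the pentose phosphate pathway 6 of 7 were higher. PGLS, the lactonase of the pathway, had 446, 509 and 446 normalized counts in CD24low and 358, 390 and 373 in CD24high libraries, a difference of 0.32 (limma adjusted p = 0.307) without overlap.

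Of the other glycolytic isoforms 4 of 7 tested were higher. PFKFB2, a bifunctional enzyme like PFKFB3, had 396, 283 and 433 normalized counts in CD24low and 604, 479 and 563 in CD24high libraries, a difference of -0.58 (limma adjusted p = 0.214) opposite in sign to PFKFB3 and PFKFB4. PGAM4, an intronless copy of PGAM1, differed by 0.28. Of the other carriers 3 of 7 were higher, with SLC16A7, the monocarboxylate carrier MCT2, at -0.41 and SLC2A8, the carrier GLUT8, at 0.41. Of the genes of glycogen and gluconeogenesis 8 of 10 were higher with a median of 0.06, and PYGL, the liver glycogen phosphorylase, differed by -0.21 and G6PC3, a glucose 6-phosphatase, by 0.26.

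Of HIF partners and degradation machinery 8 of 12 were higher. ARNT, the beta subunit that HIF alpha needs to bind DNA, had 331, 536 and 347 normalized counts in CD24low and 289, 285 and 288 in CD24high libraries, a difference of 0.46 (limma adjusted p = 0.331) without overlap. CITED2, which competes with HIF for its coactivators, had 641, 755 and 525 against 403, 434 and 492 normalized counts, a difference of 0.52. Of 23 other hypoxia-induced genes 13 were higher and 10 lower, with a median of 0.12, below the 0.44 of the 11 described above; the 2 lists were not tested against each other. MIF, a cytokine, rose in CD24low cells by DESeq2 (adjusted p = 0.0368), with 5262, 5646 and 5503 normalized counts against 3647, 4374 and 4249 in CD24high libraries and a difference of 0.42 (limma adjusted p = 0.167). The DESeq2 call of MIF was lost in 6 of 6 fits with 1 library left out. ZNF395 had 1093, 1527 and 1107 against 881, 1014 and 884 normalized counts, a difference of 0.41.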

How the data were processed

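The 6 libraries were made from total RNA depleted of rRNA, with a stranded kit and random hexamers, per the labels' protocols. The deposited table holds a signal per gene: counts scaled by the authors with the size factors of DESeq2, per the column values and the submitters' processing notes, which also name STAR 2.5.2, R 3.5.0 and hg38. Not given in the sources used here are the read counter, its strand setting and the annotation's release. Dividing by the step of each library gave whole reads for 100% of values within 0.1 reads. The floors (3 reads) cover counting error only. The intervals are those of limma and rest on the spread among the 6 libraries, which may be technical. Of 58381 IDs, 58261 matched GENCODE 29.

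The main test was limma 3.58.1 (trend option, two-sided) on log2 (normalized count + 1), for the 16047 genes that averaged at least 10, with Benjamini-Hochberg adjustment and a threshold of 0.05. The added 1 understates changes of low genes. DESeq2 1.42.0 and edgeR 4.0.16 (quasi-likelihood, TMM) were run on the whole reads in R 4.3.3; tables and figures used Python 3.11.15, pandas 2.3.3, numpy 2.4.6, scipy 1.17.1 and matplotlib 3.10.9. The fits were tested on simulated data. Named genes are the 39, the 2 tested genes with the smallest limma p in each other list, the cell type markers and the sorted proteins; copies and overlapping genes were added after their values were seen. A gene that the rule took is not reported here. The 39 genes and all lists were chosen with earlier results of these data known. Alternatives were other pseudocounts, filters, scalings and tools, rRNA share as a covariate or as a split, a block for replicate number, and leaving out each library.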

Additional observations from a re-analysis of the deposited data

How the results depend on the processing

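Among the limits are 3 libraries a group, low read numbers for SLC2A3, ENO2 and CA9, and rRNA shares that differ between libraries. The count of genes called by limma over the table was 0, against 402 by DESeq2, 164 with no filter and 0 to 371 with 1 library left out (371 without CD24low replicate 3). Of the 39 genes limma called 0, against 1 by DESeq2, 1 with no filter and 0 to 1 with 1 library left out, ENO2 each time. Of the 78 surrounding genes limma called 0, DESeq2 2, and 0 to 2 with 1 library left out (2 without CD24low replicate 3). DESeq2 leave-one-out fits, chosen after seeing the data, called 1 to 3 of the 39, with BNIP3 and HIF1A added to ENO2 without CD24low replicate 3, where 5.25% of all genes were called. The median of the 39 differences, 0.25, was 0.089 within low and 0.38 within high rRNA share. With 1 library left out, 0 to 4 of the 39 changed sign, and 9 did so within low and 2 within high rRNA share. Under the other scalings, filters, pseudocounts, tools and the rRNA covariate, at most 1 of the 39 changed sign. The cause was not tested.

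Replicate numbers are not said to mark shared cultures, and deviations of same-numbered libraries correlated at 0.27, 0.30 and 0.05. Of the 6 libraries, 5 correlated best with their own number, a hint from the data and not the design. A block for the replicate number moved limma's calls to 716 genes over the table (4.46%), 8 of the 39 (SLC2A3, ALDOC, ENO2, CA9, CA12, BNIP3, NDRG1 and ANGPTL4) and 3 of the 78, and edgeR's to 705 (4.39%), 7 of the 39 (without CA12) and 4 of the 78.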
